A study of Mus musculus with 18 samples.

Results

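The genes of the TGF-beta and BMP pathways were followed across RNA-seq libraries of mouse marrow-derived mesenchymal stem cells (MSC), as a list of 51 genes chosen by name and role: ligands, the proteins that bind them outside the cell, receptors, SMAD proteins, inhibitors, antagonists and Id genes. All 51 matched a row of the table of 54347 genes, and 44 reached 10 counts in at least 3 of the 18 libraries, against 14277 genes in the whole table. The 7 that did not were the ligands Bmp6, Bmp7, Gdf5, Gdf6 and Gdf10, the receptor Bmpr1b and the BMP antagonist Nog, and of these Gdf5 and Nog had no count in any library.

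All cells were MSC from the marrow of male C57BL/6J mice, adherent progenitors of bone and fat. The first experiment had an untreated group (control) and groups exposed to 1 of 2 drugs. CK666 blocks the Arp2/3 complex and so the branching of actin. CytoD (cytochalasin D) is a fungal product that binds filament ends and stops their growth. The study describes the RNA changes after these drugs as early, and places terminal phenotypes several days later. All cells of the second experiment went through transfection, with an siRNA used as a control (siControl, also labelled mock), with an siRNA against Arp4 (siArp4), an actin-related protein of nuclear chromatin complexes, or with the Arp4 siRNA and then CK666 (siArp4+CK666). Each of the 6 groups held 3 libraries, which the study describes as distinct preparations, and all came from 1 primary line made from the marrow of 6 mice, so that the p values measure the spread between preparations of that line and not between mice. Cells given control siRNA and CK666 together were not analysed here, so transfection and loss of Arp4 cannot be told apart where the effect of CK666 is compared between the experiments.

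Library totals ran from 18075621 to 24733307 counts. Actl6a, the gene for Arp4, had normalized counts of 720, 1127 and 841 in the siControl libraries, 48.9, 57.2 and 19.0 in the siArp4 libraries and 9.52, 22.9 and 17.9 in the siArp4+CK666 libraries, so every knockdown library lay below every siControl library. Normalized counts are counts divided by a factor for the depth of each library, set within an experiment, and levels are therefore compared within an experiment only. Of 11 markers of MSC, 9 reached 10 counts in 3 libraries, Thy1 was at 0 in all 18 and Nt5e never passed 8 counts. Their summed normalized counts ran from 105211 to 109971 in control, 51271 to 59297 in CK666, 95553 to 101514 in CytoD, 39110 to 72930 in siControl, 114699 to 126198 in siArp4 and 52017 to 65476 in siArp4+CK666. Col1a1, which is also on the list of pathway targets, made up much of these sums, and without it they ran from 46973 to 48706 in control, 31404 to 36888 in CK666, 43268 to 43561 in CytoD, 21531 to 40129 in siControl, 32612 to 36900.1 in siArp4 and 20590 to 29283 in siArp4+CK666, with siArp4 inside the range of siControl. The summed counts of 4 adipocyte markers, mostly from Lpl, ran from 17188 to 18129 in control, 31443.5 to 32805 in CK666, 54388 to 56655 in CytoD, 64231 to 78206 in siControl, 14452 to 15769 in siArp4 and 59847 to 62449 in siArp4+CK666. Of 8 leukocyte and macrophage markers Cd3e was at 0 and Ptprc never passed 1 count, with sums of 62.0 to 290.9. The endothelial Cdh5 was at 0, with sums over 4 genes of 4.08 to 25.8, and the osteoblast Ibsp was at 0, with sums over 4 genes of 0 to 64.9. The adipocyte sums and the MSC sums differed between groups in both experiments. Without Col1a1, every siArp4 sum of MSC markers still lay above every siArp4+CK666 sum. The part of these differences in the results for the pathway genes was not tested. In bulk RNA, fewer cells that express a gene and less RNA of it in each cell cannot be told apart.

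TGF-beta and BMP ligands are secreted dimers that bring together type I and type II receptor kinases, which phosphorylate receptor SMAD proteins that enter the nucleus with the shared partner SMAD4. TGF-beta itself is stored in the matrix in a latent form, bound to latent TGF-beta binding proteins, and must be released before it can signal, while BMP ligands are held back by secreted antagonists such as noggin and gremlin. In marrow stromal cells these pathways are known for their roles in matrix production and in the choice between bone, cartilage and fat.

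The sequences shown are of the members whose response to CK666 differed between the experiments, as no other member was called in that contrast with the settings used here. The 4 such members were Inhba, Inhbb, Gdf11 and Id2, and the 3 printed are those for which the 250 bases before the RefSeq start (build GRCm38.p6) lay outside the annotated gene. Inhba is on chr13:16011851-16031621 on the plus strand, Inhbb on chr1:119415465-119422248 on the minus strand and Gdf11 on chr10:128882295-128891718 on the minus strand. The windows are chr13:16011601-16011850, chr1:119422249-119422498 and chr10:128891719-128891968, each written 5′ to 3′ on the strand of its gene, with the letters TATAAA and GGGCGG (or the reverse complement of either) in capitals.
Inhba: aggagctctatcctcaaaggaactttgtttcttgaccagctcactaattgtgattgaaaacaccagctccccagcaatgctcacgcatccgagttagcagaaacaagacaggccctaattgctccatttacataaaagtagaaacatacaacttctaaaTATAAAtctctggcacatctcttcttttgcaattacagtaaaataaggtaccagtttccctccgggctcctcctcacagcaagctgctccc
Inhbb: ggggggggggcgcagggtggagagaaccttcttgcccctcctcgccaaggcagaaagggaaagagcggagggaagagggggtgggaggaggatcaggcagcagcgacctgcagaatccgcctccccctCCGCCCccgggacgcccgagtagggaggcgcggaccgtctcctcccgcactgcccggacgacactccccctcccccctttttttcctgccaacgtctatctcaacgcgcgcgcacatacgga
Gdf11: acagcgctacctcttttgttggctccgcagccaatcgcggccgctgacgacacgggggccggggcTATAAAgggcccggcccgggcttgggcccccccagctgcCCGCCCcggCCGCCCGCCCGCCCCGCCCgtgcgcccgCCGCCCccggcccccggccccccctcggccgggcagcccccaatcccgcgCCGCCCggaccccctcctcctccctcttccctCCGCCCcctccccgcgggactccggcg

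The Inhba window held TATAAA once, 91 bases before the start, and no GGGCGG, and 43.2% of its bases were G or C. The Inhbb window held GGGCGG once, 122 bases before the start, and no TATAAA, at 68% G or C. In the Gdf11 window, at 81.2% G or C, GGGCGG occurred 8 times, some of them overlapping, and TATAAA once, 185 bases before the start. The median over all 32851 windows was 52.4%. TATAAA was found in 12.4% of all windows and in 5 of the 34 members with a window, and GGGCGG in 32.7% and in 27 of 34. CAGAC, the core letters that SMAD3 and SMAD4 are known to bind, was found in 42.2% of all windows and 19 of 34 members, and in none of the 3 printed. These are matches of letters on either strand and not measured sites.

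The study's rule was used for calls: a log2 fold change beyond 1 in either direction together with a DESeq2 adjusted p below 0.01. By that rule 26 of 44 members tested (59.1%) were called in at least 1 of 6 group comparisons or in the contrast of CK666 effects. In the first experiment it was 18 of 44 (40.9%), in the second 18 of 43 (41.9%) and in both 10 of 43 (23.3%). Over all genes tested, 36.3% were called in at least 1 comparison or the contrast, 20.6% in the first experiment, 26.2% in the second and 9.55% in both. CK666 against control called 7 of 44 members tested, 3 higher and 4 lower (10.8% of all genes tested were called, 4.80% higher and 5.95% lower). CytoD against control called 7 of 43, 4 higher and 3 lower (9.02% of all genes, 4.76% higher and 4.26% lower). The median log2 fold change of the members was -0.07 for CK666 and 0.10 for CytoD, beside 0.01 over all genes tested in both cases. CK666 against CytoD called 13 of 44, 4 higher in CK666 and 9 lower (11.9% of all genes, 5.14% higher and 6.80% lower), with a member median of -0.26 beside -0.02. The first experiment's comparisons share libraries, and so do those of the second.

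For siArp4 against siControl 11 of 43 members were called, 7 higher and 4 lower (16.3% of all genes, 6.76% higher and 9.58% lower), and the member median was 0.33 beside -0.05 over all genes. For siArp4+CK666 against siControl the call went to 10 of 43, 4 higher and 6 lower (20.6% of all genes, 8.13% higher and 12.5% lower), with medians of 0.21 and -0.05, so the share of members called was close to that of all genes. For siArp4+CK666 against siArp4 it went to 5 of 43, 2 higher and 3 lower (5.65% of all genes, 1.61% higher and 4.04% lower), with medians of -0.15 and 0.01. The calls were spread over ligands, binding proteins, antagonists and Id genes. None of the 8 activin and BMP receptors and none of the 5 receptor SMAD or SMAD4 genes was called in any comparison. That absence depends on the fit, since Acvr2a, Acvr2b and Smad2 were called under other settings, given with these genes below.

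**Figure D1:**
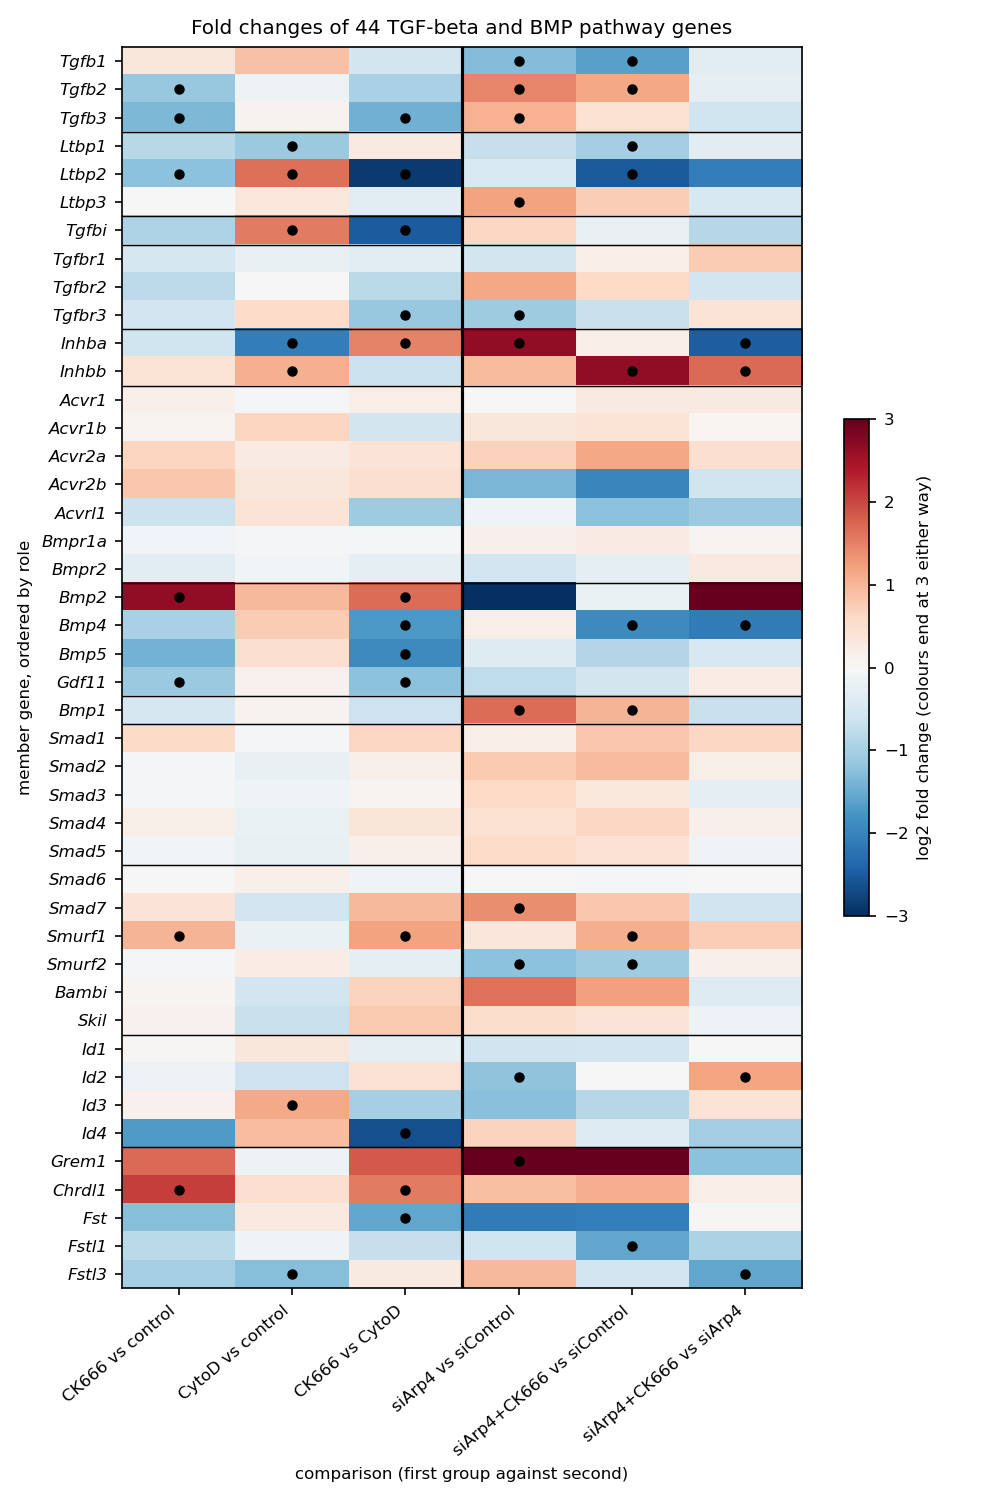
Log2 fold changes of the 44 members that reached 10 counts in at least 3 libraries, in rows ordered by role with black lines between roles, over 6 comparisons in columns (the first group named against the second), with colours ending at 3 in either direction and black dots where a member was called. Dots lie among the ligands, binding proteins, inhibitors, Id genes and antagonists, and in the fit shown the rows of activin and BMP receptors and of Smad1 to Smad5 have none. Strong colours without a dot in the second experiment, as for Bmp2, rest on few counts.

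All 3 TGF-beta ligands were called. CK666 lowered Tgfb2 and Tgfb3, and Tgfb1 was not called there, while the Arp4 knockdown raised Tgfb2 and Tgfb3 and lowered Tgfb1. Tgfb1 is the isoform best known from bone matrix and immune cells, and Tgfb2 and Tgfb3 are isoforms best known from development of the heart, palate and skeleton. All 3 are read by the same receptors.

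Tgfb2 (chr1:186622792-186705989) had normalized counts of 1001, 1105 and 998 in control, 368, 497.5 and 554 in CK666 and 1085, 878 and 841 in CytoD. All CK666 libraries lay below all others of that experiment, and control and CytoD overlapped. Against control it fell 2.19-fold with CK666 (log2 -1.13, SE 0.17, adjusted p = 5.13e-10), a call that was lost without CK666 replicate 1, where the change was -0.97. In the second experiment it had 1236.5, 638 and 949 in siControl, 2413, 2630.5 and 2773 in siArp4 and 2452, 2066 and 1813 in the siArp4+CK666 group. Both knockdown groups lay above siControl. The rise was 2.77-fold in siArp4 (log2 1.47, SE 0.26, adjusted p = 1.85e-07) and 2.24-fold in siArp4+CK666 (log2 1.16, SE 0.26, adjusted p = 4.29e-05), and the latter was 0.95 and no longer called without siControl replicate 2.

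Tgfb3 (chr12:86056745-86079041) had normalized counts of 1351, 1410 and 1305 in control, 473.5, 566 and 563.5 in CK666 and 1358, 1578 and 1422 in CytoD. As for Tgfb2, the CK666 libraries were the lowest and the other groups overlapped. The fall with CK666 was 2.54-fold (log2 -1.34, SE 0.12, adjusted p = 9.75e-29). Across the second experiment the values were 2667, 2037 and 2386 in siControl, 4788.5, 4825 and 5078 in siArp4 and 3510.5, 3221 and 2990 in the siArp4+CK666 group. None of the 3 groups overlapped, with siArp4 highest. Tgfb3 rose 2.07-fold with the knockdown (log2 1.05, SE 0.15, adjusted p = 1.05e-10), or 0.95 and no call without siControl replicate 2, and stood 1.37-fold above siControl in siArp4+CK666 (log2 0.45, adjusted p = 0.00939), under the fold minimum.

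Tgfb1 (chr7:25687002-25705077) had normalized counts of 1442, 3215.5 and 2028 in siControl, 881, 948 and 882 in siArp4 and 625, 710 and 818 in the siArp4+CK666 group. All knockdown libraries lay below all siControl libraries, although the siControl libraries themselves spread widely. It fell 2.47-fold in siArp4 (log2 -1.30, SE 0.29, adjusted p = 6.01e-05) and 3.10-fold in siArp4+CK666 (log2 -1.63, SE 0.29, adjusted p = 1.92e-07), and without siControl replicate 2 the first of these was -0.95 and not called. In the untransfected cells Tgfb1 was not called, with log2 fold changes of 0.33 for CK666 (adjusted p = 0.0263) and 0.87 for CytoD (adjusted p = 1.08e-10).

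**Figure D2:**
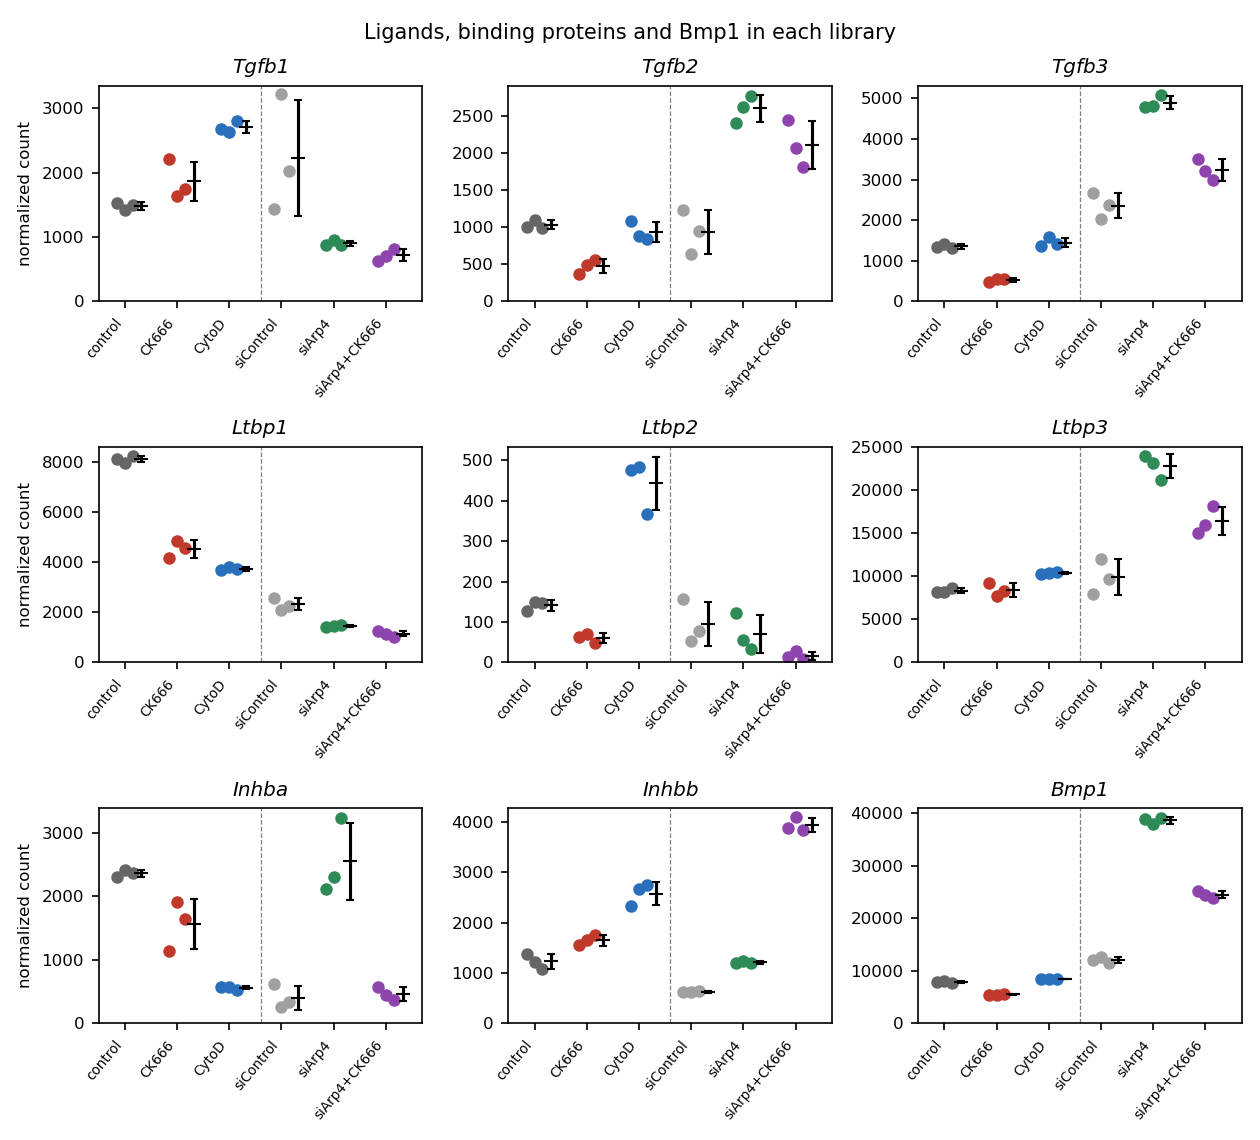
Normalized counts (linear axes from 0) of 9 members in each of the 18 libraries, as points grouped by condition, with the mean and SD of each group of 3 as a black bar beside the points and a dashed line between the experiments. Tgfb2 and Tgfb3 are low in CK666 and high in both knockdown groups, where Tgfb1 is low. Inhba and Inhbb part in siArp4+CK666, with Inhba at 365 to 575 and Inhbb at 3846.5 to 4101.

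The genes named for latent TGF-beta binding, Ltbp1, Ltbp2 and Ltbp3, were each called in at least 1 comparison, and Ltbp1 and Ltbp3 are known to anchor the stored ligand in the matrix. Ltbp1 was lowest under CytoD, Ltbp2 was called in opposite directions by CytoD and CK666, and Ltbp3 rose with the Arp4 knockdown. Ltbp2 was the one member called in opposite directions by the drugs, and no member was called in the same direction by both. Fstl3 came close, called lower by CytoD and at -0.99 with CK666, and it was called lower with CK666 as well in the fit of the compared groups only (-1.0), with the length trend removed (-1.11) and without control replicate 1 or CK666 replicate 1 (-1.04 in both). These comparisons share the control libraries.

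Ltbp1 (chr17:75005568-75392512) had normalized counts of 8127, 7978 and 8232.5 in control, 4169.5, 4865.5 and 4575 in CK666 and 3679, 3829 and 3726 in CytoD. No groups overlapped. It fell 2.17-fold with CytoD (log2 -1.12, SE 0.08, adjusted p = 2.78e-37) and was 1.79-fold lower with CK666 (log2 -0.84, SE 0.08, adjusted p = 1.28e-21), which is under the fold minimum. The second experiment gave 2585, 2114 and 2262 in siControl, 1432.5, 1437 and 1489 in siArp4 and 1239, 1155 and 1032 in the siArp4+CK666 group. The order was siControl, siArp4 and siArp4+CK666 from high to low with no overlap. The fall from siControl to siArp4+CK666 was 2.03-fold (log2 -1.02, SE 0.14, adjusted p = 2.43e-11), at -0.94 without siControl replicate 1 and -0.95 without siArp4+CK666 replicate 3, where the call was lost.

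Ltbp2 (chr12:84783212-84876532), which does not bind latent TGF-beta itself, had normalized counts of 127, 151 and 147 in control, 61.9, 71.4 and 47.4 in CK666 and 477, 484 and 368 in CytoD. The groups stood apart, CK666 below and CytoD above control. It fell 2.36-fold with CK666 (log2 -1.24, SE 0.22, adjusted p = 2.26e-07) and rose 3.13-fold with CytoD (log2 1.65, SE 0.20, adjusted p = 2.73e-15). After transfection it had 157, 52.8 and 78.5 in siControl, 122, 56.2 and 33.1 in siArp4 and 13.8, 27.7 and 8.43 in the siArp4+CK666 group. The siArp4+CK666 libraries were the lowest, while siControl and siArp4 overlapped. The fall from siControl to siArp4+CK666 was 5.77-fold (log2 -2.53, SE 0.64, adjusted p = 0.000361), and -3.12 without siArp4+CK666 replicate 2.

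Ltbp3 (chr19:5740904-5758532) had normalized counts of 7924, 12042 and 9745 in siControl, 23974, 23154 and 21222 in siArp4 and 15042, 15942 and 18190 in the siArp4+CK666 group. Both knockdown groups lay above siControl and siArp4 lay above siArp4+CK666. The rise in siArp4 was 2.30-fold (log2 1.2, SE 0.19, adjusted p = 7.02e-09). The libraries were unstranded, so reads from the opposite strand could not be told apart from those of Ltbp3, and a share of these counts is uncertain. Per kilobase of exon, Ltbp3 came after Fstl1 and Id3 in untransfected cells and after Fstl1 and Bmp1 in transfected cells.

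Tgfbi, a matrix protein named for its induction by TGF-beta, had normalized counts of 537, 512 and 541 in control, 250.5, 287.5 and 299 in CK666 and 1531.5, 1514 and 1653 in CytoD. The 3 groups did not overlap. It rose 2.95-fold with CytoD (log2 1.56, SE 0.11, adjusted p = 8.90e-44), was 1.90-fold lower with CK666 (log2 -0.92, adjusted p = 1.03e-13) and so lay 5.61-fold lower in CK666 than in CytoD (log2 -2.49, SE 0.11, adjusted p = 8.28e-102). In the second experiment it was not called, with log2 fold changes of 0.62 in siArp4 and -0.23 in siArp4+CK666 against siControl and of -0.85 in siArp4+CK666 against siArp4 (SE 0.09, adjusted p = 4.65e-18), where the groups did not overlap.

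Among the receptors for TGF-beta, Tgfbr3 (betaglycan), a co-receptor that presents ligand, was called and the kinase receptors Tgfbr1 and Tgfbr2 were not. Tgfbr3 had normalized counts of 3632, 3743 and 3735 in control, 1745, 3081 and 2597 in CK666 and 5320, 5387 and 5502 in CytoD. CK666 libraries were lowest and CytoD highest. The difference of CK666 from CytoD was 2.18-fold (log2 -1.13, SE 0.18, adjusted p = 1.34e-09), and -0.93 without CK666 replicate 1, where the call was lost. Its values were 7398, 5211 and 5510 in siControl, 2611, 2880 and 3126 in siArp4 and 4381, 3792.5 and 3278 in the siArp4+CK666 group. The siArp4 group was the lowest and did not overlap the others. The fall in siArp4 was 2.10-fold (log2 -1.07, SE 0.20, adjusted p = 1.30e-06), or -0.91 and no call without siControl replicate 1.

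Tgfbr2 had normalized counts of 3563, 1208.5 and 1750 in siControl, and 4280, 4374 and 5979 in siArp4. The groups did not overlap, but the siControl libraries spread widely. The log2 fold change of 1.17 had an SE of 0.41 and an adjusted p of 0.0165, so Tgfbr2 was not called, and without siControl replicate 1 it was 1.72 with an adjusted p of 6.33e-07. It was also called with the replicate number as a block (1.32, adjusted p = 0.00164) and with the trend on gene length removed (1.14, adjusted p = 0.000568). Tgfbr1 ranged from 581 to 1977 in siControl, with a log2 fold change of -0.54 in siArp4 (SE 0.41, adjusted p = 0.324).

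Activin is a dimer of inhibin beta subunits and signals through SMAD2 and SMAD3 like TGF-beta. The Arp4 siRNA raised Inhba, which fell into the range of siControl where CK666 was given after it, and Inhbb rose under that same treatment. In untransfected cells it was CytoD that lowered Inhba and raised Inhbb.

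Inhba (inhibin beta A) had normalized counts of 2305, 2412 and 2367 in control, 1139, 1917 and 1643 in CK666 and 574, 580 and 533 in CytoD. Control libraries were highest and CytoD libraries lowest, with no overlap. It fell 4.20-fold with CytoD (log2 -2.07, SE 0.17, adjusted p = 1.04e-30), and was 1.51-fold lower with CK666 (log2 -0.59, SE 0.17, adjusted p = 0.0023), under the fold minimum. The second experiment gave 615, 262 and 334 in siControl, 2117, 2302 and 3240 in siArp4 and 575, 443.5 and 365 in the siArp4+CK666 group. The siArp4 libraries stood above all others, and siControl and siArp4+CK666 overlapped. The rise in siArp4 was 6.31-fold (log2 2.66, SE 0.35, adjusted p = 6.88e-13), and from siArp4 to siArp4+CK666 Inhba fell 5.54-fold (log2 -2.47, SE 0.35, adjusted p = 9.02e-11).

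Inhbb (inhibin beta B) had normalized counts of 1387, 1219 and 1088 in control, 1549, 1647 and 1760 in CK666 and 2322, 2672 and 2738 in CytoD. The groups did not overlap and rose in that order. The rise with CytoD was 2.09-fold (log2 1.07, SE 0.13, adjusted p = 4.64e-16), or 0.98 and no call without control replicate 3. After transfection it had 619, 617 and 647 in siControl, 1190, 1245 and 1199 in siArp4 and 3871, 4101 and 3846.5 in the siArp4+CK666 group. The spread within each group was far smaller than the steps between them. Against siControl it stood 1.93-fold higher in siArp4 (log2 0.95, SE 0.11, adjusted p = 1.52e-16), just under the fold minimum, and rose 6.27-fold in siArp4+CK666 (log2 2.65, SE 0.11, adjusted p = 1.78e-131).

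The follistatin family, whose founding member Fst binds and blocks activin, was called in part. Fstl3, which also binds activin, had normalized counts of 329, 378 and 349 in control, 189, 169 and 173 in CK666 and 121, 148 and 168 in CytoD. Both drug groups lay below control, CytoD just below CK666. It fell 2.41-fold with CytoD (log2 -1.27, SE 0.17, adjusted p = 2.49e-12), and CK666 gave -0.99 (adjusted p = 4.27e-08), just under the fold minimum. In the second experiment Fstl3 had 111.5, 140 and 127 in siControl, 255, 260 and 225 in siArp4 and 70.8, 85.9 and 94.8 in the siArp4+CK666 group. No groups overlapped, with siArp4 at the top. From siArp4 to siArp4+CK666 it fell 2.94-fold (log2 -1.56, SE 0.21, adjusted p = 2.96e-11), and siArp4 against siControl was 0.98 (adjusted p = 2.37e-05).

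Fstl1, a secreted relative that does not block activin as Fst does, was the most abundant member per kilobase of exon in both experiments, at means of 3780 and 3472 normalized counts per kilobase. It had normalized counts of 30265, 21533 and 24925 in siControl, 17344, 16677 and 16596.5 in siArp4 and 8387, 9036 and 8787 in the siArp4+CK666 group. The groups fell in that order with no overlap. From siControl to siArp4+CK666 the fall was 2.93-fold (log2 -1.55, SE 0.16, adjusted p = 1.31e-20). Fst itself was scarce, with means of 53.0 in control, 22.0 in CK666 and 65.1 in CytoD. It was called lower in CK666 than in CytoD (log2 -1.57, SE 0.47, adjusted p = 0.00335), a call lost without CK666 replicate 1 (-1.19) or 3 (-1.48), likewise without replicate 1 (-1.41) or 2 (-1.46) of CytoD, and in the fit of the compared groups only (adjusted p = 0.0136), and the change was -2.19 without CK666 replicate 2.

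Of the BMP and GDF ligands, 5 of 9 did not reach 10 counts in 3 libraries, and the other 4 were called at least once. Gdf11 is a ligand close to myostatin that signals through activin receptors, and Bmp2 and Bmp4 are ligands known to drive bone formation. CK666 raised Bmp2 and lowered Gdf11.

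Gdf11 had normalized counts of 336, 353.5 and 361 in control, 145, 171 and 165.5 in CK666 and 396, 388 and 354 in CytoD. The CK666 libraries were the lowest and control overlapped CytoD. It fell 2.18-fold with CK666 (log2 -1.12, SE 0.14, adjusted p = 1.08e-13). In the second experiment Gdf11 had 710, 514 and 633 in siControl, 318, 379 and 406 in siArp4 and 429, 439 and 412 in the siArp4+CK666 group. Both knockdown groups lay below siControl without reaching the fold minimum, at log2 fold changes of -0.76 (adjusted p = 0.000392) and -0.54 (adjusted p = 0.0132).

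Bmp2 rose 6.33-fold with CK666, from a mean of 14.8 ± 4.50 (SD, n = 3) normalized counts in control to 93.8 ± 18.4, and its CytoD mean was 29.2 ± 1.34 (CK666 against control, log2 2.66, SE 0.37, adjusted p = 5.24e-12). In the transfected cells its library values were between 0 and 5.60. Bmp4 had normalized counts of 259, 167.5 and 241 in control, 50.1, 143 and 145 in CK666 and 148, 456 and 519 in CytoD. CytoD overlapped control, and CK666 lay below both. Lower levels in CK666 than in CytoD were called (log2 -1.73, SE 0.44, adjusted p = 0.000428), but not without CK666 replicate 1 (-1.38), CK666 replicate 2 (-1.93) or CytoD replicate 3 (-1.42), nor with the length trend removed (-1.74, adjusted p = 0.0132). After transfection Bmp4 means were 38.4 in siControl, 43.5 in siArp4 and 10.3 in siArp4+CK666, and the fall from siArp4 was called (log2 -2.09, SE 0.54, adjusted p = 0.00145) but not without siArp4 replicate 3 (-1.50), siArp4+CK666 replicate 2 (-1.97) or 3 (-2.11), nor with edgeR (adjusted p = 0.0272). The fall from siControl was 3.75-fold (log2 -1.91, SE 0.54, adjusted p = 0.00172) and was not called without siControl replicate 2 (-1.80) or siArp4+CK666 replicate 2 (-1.79), nor with edgeR (adjusted p = 0.0139). Bmp5 means were 22.0 in control, 8.27 in CK666 libraries and 31.0 in CytoD, and its call in CK666 against CytoD (log2 -1.92, SE 0.60, adjusted p = 0.00511) was kept only without CK666 replicate 2 (-2.70) when the 6 libraries were left out in turn, the other 5 values running from -2.08 to -1.58, and was also lost with the replicate block (adjusted p = 0.0143), in the fit of the compared groups only (0.0131) and with edgeR (0.0144).

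Bmp1 carries the name of the family but is a metalloproteinase that trims procollagen, and it can cut the antagonist chordin and latent TGF-beta binding proteins. It was second per kilobase in the transfected cells, at a mean of 2828 normalized counts per kilobase. Its normalized counts (chr14:70474558-70520234) were 12136, 12724 and 11556 in siControl, 38902, 37882 and 39061 in siArp4 and 25179, 24384.5 and 23912 in the siArp4+CK666 group. The groups were far apart compared with their spread. The rise was 3.18-fold in siArp4 (log2 1.67, SE 0.10, adjusted p = 2.13e-65) and 2.02-fold in siArp4+CK666 (log2 1.01, SE 0.10, adjusted p = 1.68e-24). The latter was close to the minimum, at 0.97 without siControl replicate 3, 1.0 without siArp4+CK666 replicate 1 and 0.75 with the length trend removed, and not called in these cases.

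Of the 8 receptors for activins and BMPs, Bmpr1b did not reach 10 counts in 3 libraries, and the other 7 were tested without a call. Bmpr1a, a type I BMP receptor, had mean normalized counts of 3023 ± 141 in control, 2836 ± 563 in CK666 and 2949 ± 116 in CytoD (SD, n = 3). The differences between these groups were smaller than the spread within CK666. Over the 6 comparisons the log2 fold changes of Acvr1 lay between -0.04 and 0.28, those of Acvr1b between -0.56 and 0.64 and those of Bmpr2 between -0.58 and 0.30. The scarce Acvrl1 and Acvr2b ran from -1.23 to 0.42 and from -1.95 to 0.81. The most extreme log2 fold changes among receptors with a mean of at least 50 in the experiment concerned were 1.15 for Acvr2a in siArp4+CK666 against siControl (SE 0.43, adjusted p = 0.0225) and 0.81 for Acvr2b with CK666 (SE 0.49, adjusted p = 0.188). In siArp4+CK666 against siControl, Acvr2a was called with the replicate block (1.28), with the length trend removed (1.12) and without siControl replicate 1 (1.77), and Acvr2b with the replicate block (-2.16), in the fit of the compared groups only (-1.94) and without siArp4 replicate 3 (-1.94). Calls also appeared for Acvr2a in siArp4 without siControl replicate 1 (1.29), and for Acvr2b in siArp4 without siArp4 replicate 3 (-2.50) and with CK666 without control replicate 1 (1.56). Exons of Acvr2a overlap Orc4 on the opposite strand over 446 bases, so its counts are uncertain.

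Smad1 to Smad5, the members that carry the signal, were not called either. Smad9, on the list of other pathway genes described below, was called lower in both knockdown groups against siControl. Smad4, the shared partner, had mean normalized counts of 2654.5 ± 66.9 in control, 2999 ± 409 in CK666 and 2335 ± 85.1 in CytoD. In the transfected cells the means were 1469 ± 281, 2011 ± 373.5 and 2254 ± 93.6 in siControl, siArp4 and siArp4+CK666. Smad1, a BMP-activated SMAD, was higher by less than the fold minimum wherever CK666 was present, at log2 fold changes of 0.58 against control and 0.61 in siArp4+CK666 against siArp4, both with an adjusted p below 0.01. Smad2, which TGF-beta and activin activate, was 0.78 higher in siArp4 and 0.96 higher in siArp4+CK666 (adjusted p = 2.88e-06), again below the minimum, and the latter was called without siControl replicate 1 (1.13) or siArp4+CK666 replicate 3 (1.0). Smad3 and Smad5 kept within -0.28 to 0.60 and -0.22 to 0.55 over the 6 comparisons.

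Of 6 inhibitors of signalling within the cell or at its surface, Smad7, Smurf1 and Smurf2 were called. Smad7, an inhibitory SMAD that TGF-beta is known to induce as feedback, had normalized counts of 606, 638 and 626 in siControl, 1678, 1637 and 1587 in siArp4 and 1074, 1081 and 1091 in the siArp4+CK666 group. The groups were tight and did not overlap. It rose 2.62-fold in siArp4 (log2 1.39, SE 0.11, adjusted p = 3.62e-36), and stood 0.80 above siControl in siArp4+CK666 (adjusted p = 3.24e-12). Smad6, the BMP-side inhibitory SMAD, kept all 6 log2 fold changes between -0.14 and 0.15.

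Smurf1 and Smurf2 are ubiquitin ligases that mark SMAD proteins and receptors for breakdown. Smurf1 had normalized counts of 1967.5, 2189 and 1981 in control, 3366, 4667 and 4387 in CK666 and 1710, 1865 and 1787 in CytoD. CK666 libraries lay above all others. It rose 2.02-fold with CK666 (log2 1.02, SE 0.13, adjusted p = 6.58e-13), so close to the minimum that the change was 0.99 without control replicate 1 or 3, 0.93 without CK666 replicate 2 and 0.98 without CK666 replicate 3, none of them called. Across the transfected cells it had 1490, 1035 and 991 in siControl, 1420, 1392 and 1673 in siArp4 and 2956, 2283.5 and 2196 in the siArp4+CK666 group, the last group being highest. The rise from siControl to siArp4+CK666 was 2.11-fold (log2 1.08, SE 0.23, adjusted p = 1.19e-05), at 0.99, 0.97 and 0.94 and not called without siControl replicate 2, siControl replicate 3 and siArp4+CK666 replicate 1, and 0.97 with the length trend removed.

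Smurf2 went the other way in the knockdown arm, with normalized counts of 1877, 947 and 1123 in siControl, 556, 541 and 598 in siArp4 and 830, 637 and 426 in the siArp4+CK666 group. All knockdown libraries were below all siControl libraries. The fall was 2.33-fold in siArp4 (log2 -1.22, SE 0.32, adjusted p = 0.000919) and 2.09-fold in siArp4+CK666 (log2 -1.06, SE 0.32, adjusted p = 0.00394). Without siControl replicate 1 these were -0.88 and -0.71 and not called, and without siArp4 replicate 1 or 2 the first was -1.20 or -1.19 with adjusted p values of 0.0102 and 0.0115. The second was also not called without siArp4+CK666 replicate 2 (-1.07) or 3 (-0.84), in the fit of the compared groups only (adjusted p = 0.0211) or with edgeR (adjusted p = 0.0139). Bambi, a decoy receptor, and Skil, a nuclear repressor of SMAD targets, were not called, with log2 fold changes of -0.58 to 1.62 and -0.66 to 0.78 over the 6 comparisons. The top of the range for Bambi, in siArp4 against siControl, had an SE of 0.56 and an adjusted p of 0.0148, and it was called with the replicate block (1.82), without siControl replicate 2 (2.30) and without siArp4+CK666 replicate 1 (1.63). In siArp4+CK666 against siControl Bambi was called without siControl replicate 2 (1.92).

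Id genes encode inhibitors of basic helix-loop-helix factors and are classical direct targets of BMP signalling. They were not called together in any comparison. Id3 was second per kilobase in untransfected cells, at a mean of 1377 normalized counts per kilobase, with normalized counts of 1822, 1620 and 1731 in control, 2414, 1490 and 1805 in CK666 and 3642, 3729 and 3941 in CytoD. The CytoD libraries stood above all others, and control and CK666 overlapped. The rise with CytoD was 2.19-fold (log2 1.13, SE 0.16, adjusted p = 6.83e-11), while Id1 gave 0.34 (SE 0.20, adjusted p = 0.177) and Id2 gave -0.61 (SE 0.13, adjusted p = 1.77e-05).

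Id2 had normalized counts of 570, 738 and 677 in siControl, 317.5, 271 and 273.5 in siArp4 and 542, 653 and 768 in the siArp4+CK666 group. The siArp4 libraries were the lowest, and the other groups overlapped. It fell 2.30-fold in siArp4 (log2 -1.20, SE 0.20, adjusted p = 5.11e-08) and rose 2.28-fold from siArp4 to siArp4+CK666 (log2 1.19, SE 0.20, adjusted p = 2.03e-07). In untransfected cells Id2 had 991.5, 927 and 1012 in control, 1001, 860 and 749.5 in CK666 and 641, 642 and 642 in CytoD. Id4 was scarce, with means of 11.6 in control, 3.58 in CK666 libraries and 22.1 in CytoD, and was called lower in CK666 than in CytoD (log2 -2.63, SE 0.65, adjusted p = 0.00025).

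Of the BMP antagonists among the members, Nog was absent and Grem1 was scarce. Chrdl1 had a mean of 161.7 in CK666 and at most 55.1 in any other group. Chordin itself (Chrd), on the list of other pathway genes, had 89.0, 92.5 and 85.9 in control. It was called higher with CytoD than in control, lower in CK666 than in CytoD, and lower in both knockdown groups than in siControl. Chrdl1 (chordin-like 1) had normalized counts of 28.1, 30.2 and 58.0 in control, 114, 193 and 178.5 in CK666 and 64.8, 58.1 and 42.3 in CytoD. The CK666 libraries were the highest. It rose 4.19-fold with CK666 (log2 2.07, SE 0.35, adjusted p = 4.20e-08). Grem1 (gremlin) was called higher in siArp4 than in siControl (adjusted p = 0.00164) on normalized counts of 21.1, 13.0 and 8.02 against 0, 0 and 0.934, where the siControl group held 1 count in all, so no fold is given. That call was lost without siControl replicate 1 or 2, with adjusted p values of 0.0153 and 0.0128, and without siArp4 replicate 1 or 2 no adjusted p was given. Its group mean after both treatments was 6.03.

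Set directly against each other, the drugs separated 13 members, of which Tgfbi, Tgfbr3, Bmp4, Bmp5, Fst and Id4 are described above. Lower in CK666 than in CytoD were also Ltbp2 by 7.37-fold (log2 -2.88, SE 0.21, adjusted p = 2.00e-39), Tgfb3 by 2.72-fold (log2 -1.44, SE 0.12, adjusted p = 3.21e-33) and Gdf11 by 2.36-fold (log2 -1.24, SE 0.14, adjusted p = 1.15e-16). Higher in CK666 were Bmp2 by 3.21-fold (log2 1.68, SE 0.33, adjusted p = 3.07e-06), Chrdl1 by 2.94-fold (log2 1.55, SE 0.34, adjusted p = 3.54e-05), Inhba by 2.79-fold (log2 1.48, SE 0.17, adjusted p = 4.57e-16) and Smurf1 by 2.32-fold (log2 1.21, SE 0.13, adjusted p = 5.03e-18). For each of these 7 the libraries of the 2 drug groups did not overlap.

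The effect of CK666 was then compared between the experiments, as its log2 fold change in knockdown cells minus that in untransfected cells over all 18 libraries. This asks whether the response to blocked actin branching is the same once Arp4 is depleted. Of 43 members tested 4 were called, 3 with a higher and 1 with a lower value in the knockdown (4.35% of all genes were called, 1.86% higher and 2.49% lower), and the member median was -0.01 beside -0.03 over all genes. Inhba, Inhbb, Gdf11 and Id2 were the members called, and in each of the 6 other fits and with each of the 12 libraries concerned left out they were called again.

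Inhba had a CK666 effect of -0.59 in untransfected cells and of -2.47 after the knockdown, a difference of -1.89 (SE 0.39, adjusted p = 4.50e-05). Both effects were downward. For Inhbb the effects were 0.42 and 1.70, a difference of 1.27 (SE 0.14, adjusted p = 1.24e-16). Each of the 3 siArp4+CK666 libraries lay above each siArp4 library for Inhbb and below each for Inhba.

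Gdf11 fell with CK666 in untransfected cells (log2 -1.12) and gave 0.22 (SE 0.19, adjusted p = 0.57) in knockdown cells, a difference of 1.34 (SE 0.20, adjusted p = 1.27e-09). Id2 gave -0.17 (SE 0.13, adjusted p = 0.318) without and rose by 1.19 with the knockdown, a difference of 1.35 (SE 0.22, adjusted p = 1.14e-07). Other members missed the call by the fold minimum or by the adjusted p. Smad7 had effects of 0.39 and -0.59 and a difference of -0.99 (SE 0.11, adjusted p = 5.80e-18), and it was called with edgeR (-1.01, adjusted p = 0.00287), with TMM scaling (-1.01) and without control replicate 1 (-1.03), among other libraries left out. Chrdl1 had a difference of -1.88 (SE 0.61, adjusted p = 0.0199), called in the fit of the compared groups only (-1.87), with the length trend removed (-2.0) and without control replicate 3 (-2.29). Tgfbr1 had 1.27 (SE 0.46, adjusted p = 0.0472), called in the fit of the compared groups only (1.28). Tgfbr3 had 0.99 (adjusted p = 0.00311), called without control replicate 1 (1.0), CK666 replicate 2 (1.17) or 3 (1.02), siArp4 replicate 3 (1.05) or siArp4+CK666 replicate 3 (1.07). Tgfb2, which fell with CK666 alone, had a difference of 0.82 (SE 0.30, adjusted p = 0.048) and was not called.

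**Figure D3:**
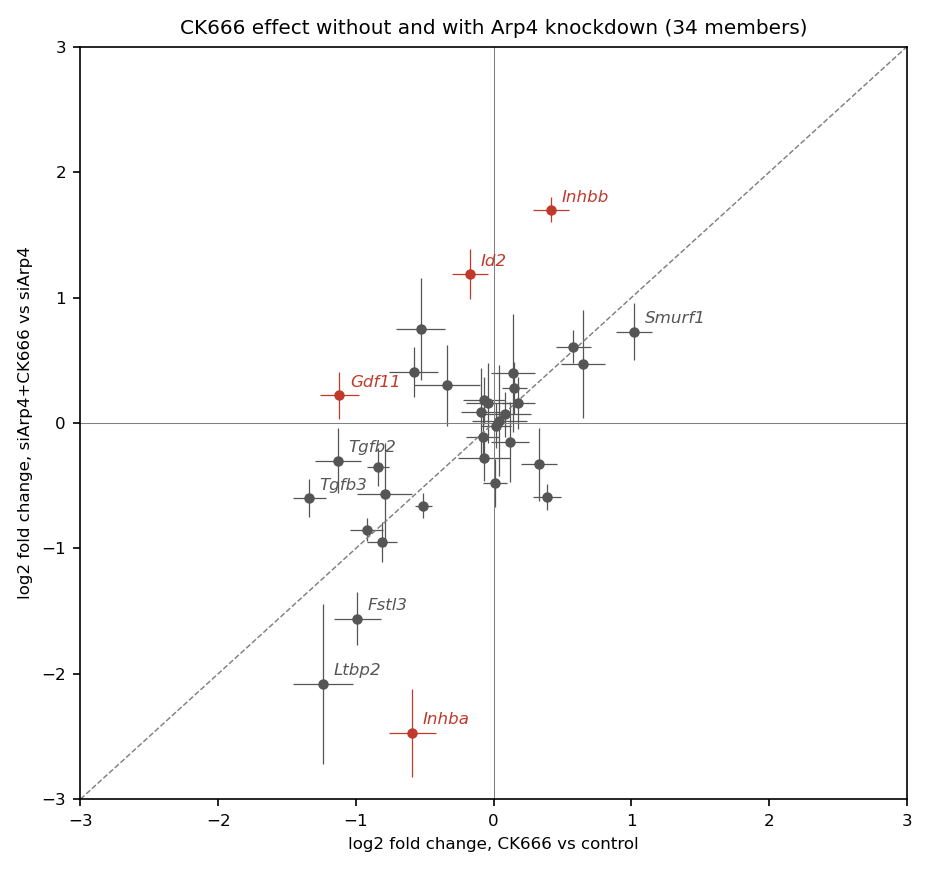
CK666 effect (log2 fold change, points, with bars of 1 SE either way) in untransfected cells on the horizontal axis and in Arp4 knockdown cells on the vertical axis, for the 34 members whose mean normalized count was 50 or more in both experiments. The dashed line marks equal effects, and red points are the 4 members whose effects were called different: Inhbb, Id2 and Gdf11 lie above the line and Inhba below it. Named grey points changed by more than 1 on the log2 scale on either axis.

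The siControl libraries differed among themselves in a way that followed gene length, and this touches the comparisons with siControl. In siControl replicate 1, long genes were above and short genes below the group mean (Spearman's rho 0.53 over 11162 genes and 0.57 over 36 members), and in replicate 2 the order was opposite (-0.45 and -0.47). Tgfbr1 and Id3 are examples, chosen after their values were seen. Tgfbr1 had 1977, 581 and 1041 normalized counts in the 3 siControl libraries, and Id3 had 1524, 6730 and 2909, so each was highest where the other was lowest. Not all long members followed, as the log2 deviations in replicates 1 and 2 were -0.30 and 0.30 for Ltbp3 and near 0 for Bmp1. Similar trends were seen in CK666 replicates 1 (-0.58) and 2 (0.55) and in siArp4+CK666 replicates 1 (0.52) and 3 (-0.50), over all genes. These correlations are across genes, which are not independent replicates. With the trend removed, the number of members called was 8, 7 and 14 for CK666, CytoD and CK666 against CytoD, and 13, 9 and 6 for the 3 comparisons of the second experiment in the order above. Id3 in siArp4 against siControl was not called, at -1.25 (SE 0.47, adjusted p = 0.0247), and with the trend removed it was -0.88 (adjusted p = 0.00984). Without siControl replicate 1 it was called at -1.62, and it stood at -0.51 without siControl replicate 2.

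**Figure D4:**
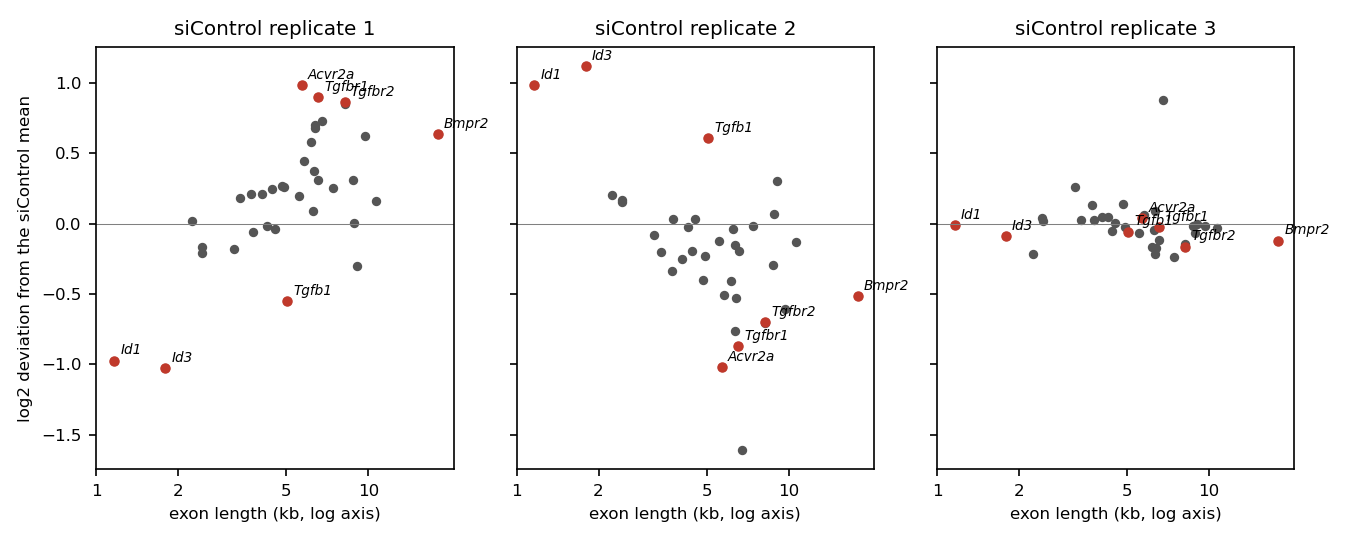
Deviation of each member from its siControl mean (log2 of normalized counts, vertical axis) against the summed exon length of the gene (kilobases, log axis), in 1 panel for each of the 3 siControl libraries, for 36 members. Named red points are 7 members that show the spread: Id1 and Id3 at the short end, and Tgfb1 of middle length, lie below 0 in replicate 1 and above it in replicate 2, and the receptors Acvr2a, also of middle length, and Tgfbr1, Tgfbr2 and Bmpr2, which are longer, lie on the other side. Ltbp3 and Bmp1, long genes among the grey points, do not follow.

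Other genes of the pathway were taken from a list of 60 that holds further ligands, ligand release factors, antagonists and SMAD partners, of which 37 reached 10 counts in 3 libraries. In CK666 against control 2 were called higher and 3 lower of 37 tested, or 13.5% beside 10.8% of all genes, and in CytoD against control 1 and 2, or 8.11% beside 9.02%. In CK666 against CytoD the counts were 3 and 5 (21.6% beside 11.9%). In siArp4 against siControl they were 4 and 2 (16.2% beside 16.3%), in siArp4+CK666 against siControl 6 and 5 (29.7% beside 20.6%), and in siArp4+CK666 against siArp4 1 and 4 (13.5% beside 5.65%). The CK666 effects were called different for 2 (5.41% beside 4.35%), Thbs1 higher and Dcn lower in the knockdown.

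Thbs1, thrombospondin 1, a matrix protein that can release active TGF-beta from its latent form, had normalized counts of 107600, 118205.5 and 117621 in control and 8057, 12694.5 and 12009 in CK666. Every CK666 library lay below every control library. It fell 10.5-fold with CK666 (log2 -3.39, SE 0.16, adjusted p = 2.37e-101) and 2.30-fold from siArp4 to siArp4+CK666 (log2 -1.20, SE 0.23, adjusted p = 4.90e-06), and the effects differed by 2.18 (SE 0.27, adjusted p = 1.23e-13). Dcn, decorin, a matrix proteoglycan that can bind TGF-beta, had 25.1, 22.6 and 26.1 in siControl, 371, 431 and 443 in siArp4 and 81.4, 62.9 and 58.0 in the siArp4+CK666 group. It rose 16.7-fold in siArp4 (log2 4.06, SE 0.27, adjusted p = 2.40e-50) and fell 6.15-fold from there with CK666 (log2 -2.62, SE 0.23, adjusted p = 1.43e-27). Gdf15, a stress-induced ligand of the family, rose 7.34-fold with CK666 (log2 2.88, SE 0.22, adjusted p = 6.77e-36). Smad9, a SMAD that BMP receptors activate, fell in siArp4 (log2 -1.90, SE 0.46, adjusted p = 0.000287) and was also called lower in siArp4+CK666 against siControl. Bmper, a modulator of BMP activity, rose in siArp4+CK666 against siControl (log2 2.50, SE 0.29, adjusted p = 2.29e-16).

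A list of 30 genes known as transcriptional targets of TGF-beta or BMP, many of which answer to other pathways as well, was read in the same way. Like the members and the other list, it was chosen with earlier results of these data known. An excess over the share of all genes is therefore not a test of the pathway. With CK666, 1 was called higher and 8 lower of 28 tested (32.1% beside 10.8% of all genes), with a median log2 fold change of -0.41 beside 0.01 over all genes. With CytoD it was 2 and 4 (21.4% beside 9.02%), with medians of 0.03 and 0.01, and CK666 against CytoD gave 3 and 7 (35.7% beside 11.9%), with medians of -0.38 and -0.02. In siArp4 8 were higher and 2 lower of 27 (37.0% beside 16.3%), with medians of 0.56 and -0.05. In siArp4+CK666 against siControl 3 were higher and 5 lower (29.6% beside 20.6%), with medians of -0.07 and -0.05, and against siArp4 none was higher and 8 were lower (29.6% beside 5.65%), with medians of -0.58 and 0.01. The CK666 effects were called different for 4 (14.8% beside 4.35%).

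Hey1, a transcription factor gene that Notch also controls, was the 1 target called higher with CK666 and had the largest fold of the list there. It had normalized counts of 0.967, 3.90 and 2.07 in control, 89.4, 92.8 and 119 in CK666 and 11.7, 10.7 and 20.6 in CytoD. The groups did not overlap. The rise was 43.4-fold with CK666 (log2 5.44, SE 0.65, adjusted p = 1.20e-15) and 6.18-fold with CytoD (log2 2.63, SE 0.68, adjusted p = 0.000568), both from very few counts in control. It was also called higher in siArp4+CK666 than in siControl (adjusted p = 0.000489), with 19.0, 14.3 and 19.0 against 0.838, 0 and 0, where siControl held 1 count in all and no fold is given.

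Ccn2 (connective tissue growth factor), also known as a target of YAP, had normalized counts of 32102, 30303 and 32718 in control, 2475, 2030 and 2272 in CK666 and 3355, 3428 and 3584 in CytoD. It fell 14.0-fold with CK666 (log2 -3.81, SE 0.10) and 9.18-fold with CytoD (log2 -3.20, SE 0.10). In the second experiment it had 6322, 7172 and 7535 in siControl, 16987, 16846.5 and 17091.5 in siArp4 and 1289, 1429 and 1445 in the siArp4+CK666 group. The siArp4 libraries were the highest and those with CK666 the lowest, with a rise of 2.42-fold and then a fall of 12.2-fold (log2 -3.61, SE 0.13, adjusted p = 3.27e-177). Col3a1, a fibrillar collagen, had a rise of 7.21-fold in siArp4 (log2 2.85, SE 0.41, adjusted p = 6.70e-11) and a fall of 5.37-fold from there with CK666 (log2 -2.42, SE 0.41, adjusted p = 1.18e-07). Of the 4 targets whose CK666 effects were called different, Tagln, Acta2 and Postn were lower in the knockdown and Lox was higher. For Tagln and Acta2, genes of contractile cells, the effects were lower by 2.21 (SE 0.41) and 1.01 (SE 0.24) on the log2 scale. Exons of Tagln overlap Pcsk7 on the opposite strand.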

How the data were processed

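RNA-seq was made from unstranded libraries of MSC. The authors quantified transcripts with Salmon 1.2.1 against GENCODE vM25 (GRCm38) and deposited expected counts per gene without scaling. How transcript estimates became gene values is not given in the sources used here. Estimated counts were rounded to whole numbers. Symbols, positions and exon lengths came from GENCODE vM21, which matched 54094 identifiers and not 253. Promoter windows came from RefSeq (GRCm38.p6).

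Each experiment's 9 libraries entered 1 fit, with group as the only term, in DESeq2 1.42.0 (R 4.3.3, Wald test, two-sided, Benjamini-Hochberg adjustment over all genes, unshrunken fold changes), and the contrast of CK666 effects over all 18. The fits were tested on simulated counts. Alternatives were edgeR 4.0.16 (quasi-likelihood), TMM scaling, a count filter of 10 in 3 libraries, no fold minimum, fits of the compared groups only, a replicate block, each library left out, and, added after seeing the data, removal of a trend on exon length.

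Members and lists were chosen with earlier results of these data known. Values of each library are given for members called with a mean of at least 50 in that experiment. Group means are given for scarcer ones, and ranges by role otherwise. For the 2 other lists, counts and some of the largest called changes are given. A few others (Tagln, Acta2, Smad9, Chrd) were chosen after their values were seen. The labels do not say whether same-numbered libraries were prepared together. Deviations of same-numbered libraries correlated between -0.51 and 0.71, which cannot decide it, as the deviations also follow gene length.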

Additional observations from a re-analysis of the deposited data

Results flagged for a closer look

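The effect of CK666 differed between knockdown and untransfected cells for 4 members, by the test of the difference itself in DESeq2. Inhba had a difference of -1.89 (log2 scale, adjusted p = 4.50e-05), with siArp4+CK666 below siArp4 in all 3 libraries. Inhbb had 1.27 (adjusted p = 1.24e-16) and Id2 had 1.35 (adjusted p = 1.14e-07), both with siArp4+CK666 above siArp4 in all 3 libraries. Gdf11 had 1.34 (adjusted p = 1.27e-09), with all 3 CK666 libraries below all control libraries and siArp4+CK666 above siArp4. The cells compared also differ in having been transfected, and the part of that in the differences cannot be told apart.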

How the results depend on the processing

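Dropping the fold minimum moved every count of called members by more than 1.5 times, to 20 (CK666 against control), 14 (CytoD against control), 28 (CK666 against CytoD), 19 (siArp4 against siControl), 16 (siArp4+CK666 against siControl), 11 (siArp4+CK666 against siArp4) and 8 (difference of the CK666 effects). All other alternatives kept each count within 1.5 times. In the order above, the counts were 7, 7, 12, 11, 8, 4 and 5 with edgeR and 8, 7, 13, 13, 12, 5 and 4 with the replicate block. The labels do not say whether the replicate numbers pair libraries, and not every library correlated best with its own number. For the 57 called changes of single members, 331 of 342 values under these alternatives kept the call and 11 lost it, and of 523 values with a library left out 480 kept it and 43 lost it. None changed direction, and 38 kept their call throughout. No adjusted p was given for Grem1 without siArp4 replicate 1 or 2. With 3 libraries a group and siControl libraries that differ with gene length, changes near the fold minimum and in scarce genes are the least certain.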

Other observations

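Gdf15, which rose with CK666 in untransfected cells, spread widely among the transfected controls, with normalized counts of 1101, 6579 and 2814 in siControl. It had 1285, 1277 and 1081 in siArp4 and 2096, 2774 and 4178 in the siArp4+CK666 group. The siControl range covered both knockdown groups apart from the lowest siArp4 library, and Gdf15 was not called in the second experiment.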
